A study of Mus musculus with 32 samples.

Results

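Thyroid hormone signalling was followed through reperfusion after stroke in Hr, Klf9, Dio2, Thra, Thrb and Crym, 6 of the 17877 genes on the array. They were chosen by name, with their levels in these groups already known, and 5 of the 6 were found under their own name in the tables of both tissues. Klf9 was listed under an older name, BTEB1, and was matched by its transcript accession. The 6 genes are read by 8 of 25697 probes, since Hr and Thra have 2 probes each. One of them, the brighter Thra probe, carries an accession that was not matched and is named only by the name in the files.

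The samples are total RNA from the right striatum and right cortex of male wild-type C57BL/6J mice of 8 to 10 weeks. Mice of the ischaemia and reperfusion (I/R) groups had the middle cerebral artery occluded with a suture for 2 h, and tissue of the infarct area was taken 2, 8 or 24 h after the suture was withdrawn. Sham mice had only a first anaesthesia with an incision of the neck, so that they lack both the suture and the second anaesthesia, and when after surgery their tissue was taken is not stated. Each of the 8 groups (2 h, 8 h, 24 h and sham in each tissue) holds 4 arrays, and the labels do not say whether each array is a separate mouse, so the spread given here is the spread between arrays.

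Thyroid hormone enters the brain through transporters, and the deiodinase Dio2 turns the prohormone thyroxine into the active triiodothyronine, mainly in astrocytes. Triiodothyronine binds the nuclear receptors encoded by Thra, the main receptor gene of the brain, and Thrb, which sit on DNA with retinoid X receptors and exchange corepressors for coactivators when hormone is bound. Hr (hairless) encodes a corepressor that binds these receptors and is itself a gene switched on by the hormone, Klf9 encodes a zinc finger transcription factor that is a direct target of both thyroid hormone and glucocorticoids, and Crym encodes a cytosolic protein that binds triiodothyronine.

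The promoters of Klf9 and Thrb are shown because receptor binding to the AGGTCA core motif is how the pathway reaches its target genes. Both are RefSeq sequences of build GRCm38.p6 on the plus strand, from 250 bases before to 50 bases after the annotated start, Klf9 at chr19:23140976-23141275 and the first of the Thrb starts at chr14:17660710-17661009. Capitals mark AGGTCA, which in Thrb begins at position -184 from the start.
Klf9: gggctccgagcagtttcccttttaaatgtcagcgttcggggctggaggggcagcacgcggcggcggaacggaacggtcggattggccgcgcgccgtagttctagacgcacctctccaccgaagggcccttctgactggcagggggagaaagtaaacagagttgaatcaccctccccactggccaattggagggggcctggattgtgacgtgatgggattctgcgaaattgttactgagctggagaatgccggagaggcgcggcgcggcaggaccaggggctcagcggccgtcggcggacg
Thrb: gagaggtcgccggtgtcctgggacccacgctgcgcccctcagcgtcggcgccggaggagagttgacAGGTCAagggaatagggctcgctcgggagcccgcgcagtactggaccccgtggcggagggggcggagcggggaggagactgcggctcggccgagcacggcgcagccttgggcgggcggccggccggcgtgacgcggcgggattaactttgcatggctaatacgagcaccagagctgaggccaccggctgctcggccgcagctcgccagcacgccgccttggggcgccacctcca
A search of both strands for AGGTCA found 1 match in the Thrb window and 0 in the Klf9 window, and 16.3% of 32851 promoters of this length hold it. The direct repeat, AGGTCA followed after any 4 bases by AGGTCA, contains the core motif. It matched in 5 of the 32851 promoters and in neither of these windows. Promoter sequences were found for 3 of the 6 genes, Klf9, Dio2 and Thrb. The Dio2 window and the window of the other Thrb start, which are not shown, held 0 matches of either motif. A match is only these letters, and a window without one says nothing about the receptor.

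The median signal was 57.2 to 103.7 on the striatum arrays and 70.0 to 88.7 on the cortex arrays, and 52.3 to 55.2% and 49.8 to 53.9% of probes were detected (detection p under 0.05). Levels below are log2 normalised signals, and a log2 difference of 1 is a doubling. Of the 6 genes, 4 (Hr, Klf9, Thra and Crym) were detected on all 32 arrays and entered the fit in every comparison, so the detection filter did not choose among their groups. As a check of the tissues, all 6 oligodendrocyte markers were higher and all 4 tested cortical excitatory neuron markers lower in sham striatum than in sham cortex, and the cortical marker Rtn4r was detected on no sham striatum array. Of 7 tested markers of striatal projection neurons, 0 passed the threshold between the sham tissues (median difference 0.33), with a summed level of 5370 to 11400 in sham striatum and 6150 to 7950 in sham cortex, so these markers do not set the labelled tissues apart here. Fewer cells of a type and less RNA per cell cannot be told apart in such bulk tissue.

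Hr stood higher than sham in the striatum at 8 h, the only time and tissue at which its difference from sham passed the threshold. Its log2 level was 10.75, 10.92, 10.60 and 10.89 on the 8 h striatum arrays, against 9.54, 9.62, 9.67 and 9.32 on the sham striatum arrays. Every 8 h array lay above every sham array, and the mean difference was 1.25 ± 0.12 (SE, n = 4 each), a 2.38-fold higher level. The difference was visible before any normalisation, with deposited signals of 1655.5 to 1982 at 8 h and 425.6 to 1278.3 in sham. Within the 3 slides that held both groups the difference was 1.28, 1.25 and 1.17.

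The 2 h striatum arrays lay between these groups, at 10.17, 9.79, 10.10 and 10.02, all above sham and all below 8 h. Their difference from sham was 0.49 ± 0.12, which did not pass the threshold, and within slides it was 0.78, 0.12 and 0.60. At 24 h the striatum level was 9.64, 9.38, 9.26 and 9.14, a difference of -0.18 ± 0.12 from sham, and the 2 groups overlapped. In order, Hr in the striatum was highest at 8 h, then 2 h, sham and 24 h, and only the neighbours sham and 24 h were not separated by their ranges.

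In the cortex the Hr level was 9.17, 9.72, 9.45 and 9.41 at 2 h and 9.37, 9.45, 9.54 and 8.94 at 8 h, against 9.41, 9.50, 9.16 and 9.15 in sham. Both groups overlapped with sham, with differences of 0.13 ± 0.14 and 0.02 ± 0.14. At 24 h the values were 8.89, 9.24, 8.83 and 8.81, 1 of them inside the sham range, with a difference of -0.36 ± 0.14. This difference missed the threshold. It passed without the highest 24 h array (-0.46) or with the replicate number as a block. No cortex array of any group exceeded 9.72, while no striatum array at 8 h was under 10.60.

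**Figure D1:**
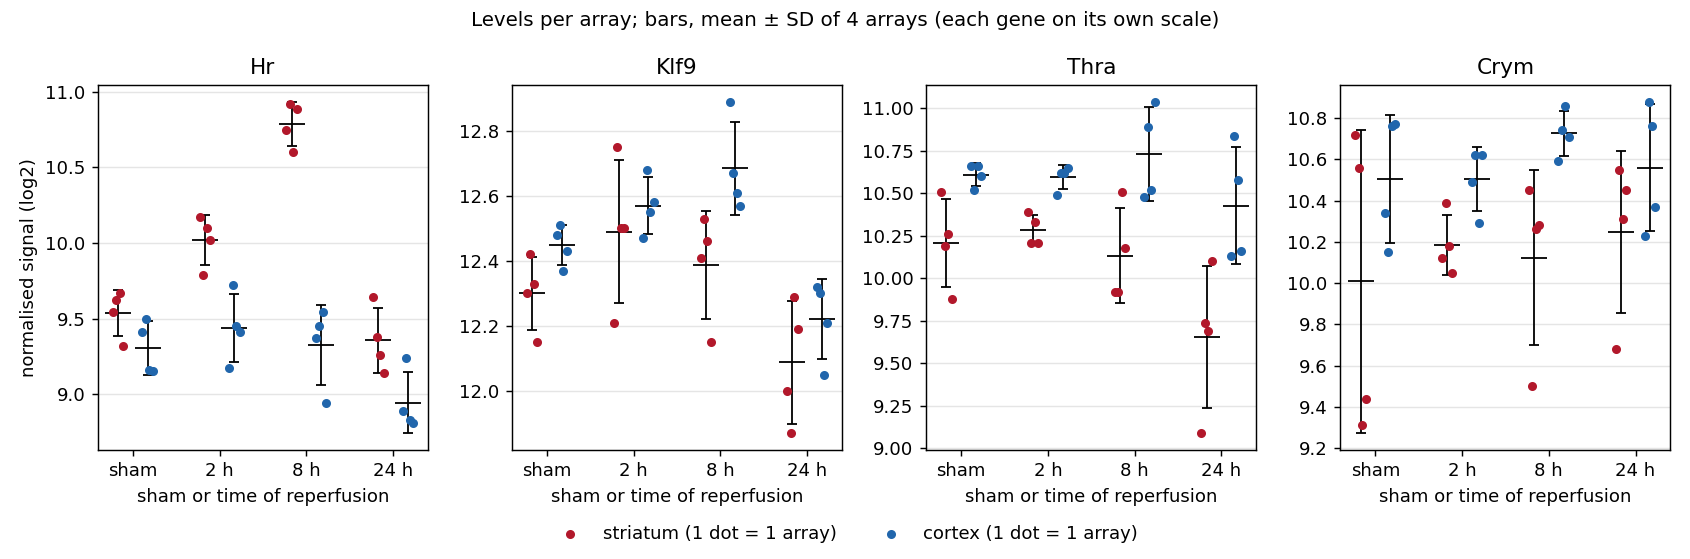
Log2 normalised signal of Hr, Klf9, Thra and Crym on each of 32 arrays (dots), by tissue and by sham or time of reperfusion, with the mean and SD of 4 arrays (bars); each gene has its own vertical scale. The 8 h striatum arrays of Hr sit between 10.60 and 10.92, above all others, while the groups of Crym overlap.

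The 2 Hr probes gave the same picture at 8 h in the striatum and differed in smaller respects. On the dimmer probe the 8 h striatum arrays read 6.94, 7.43, 7.49 and 7.36, against 5.76, 5.70, 6.00 and 6.37 in sham, a difference of 1.35 ± 0.22 with no overlap. At 2 h in the striatum it read 6.50, 5.71, 6.39 and 5.76, which overlapped with sham, and the difference of 0.13 ± 0.22 was smaller than the 0.49 of the brighter probe. In the cortex at 24 h the dimmer probe was 0.45 lower (-0.45 ± 0.15), past the threshold. It was detected there on only 1 of the 4 arrays, and on all 4 sham arrays, with cortex detection inferred from the probe's signal. The dimmer probe had deposited signals of 176.5 to 250.3 in the striatum at 8 h, where it was detected on all 4 arrays, against 63.3 to 138.4 in sham striatum, and of 65.4 to 101.6 in the cortex.

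**Figure D2:**
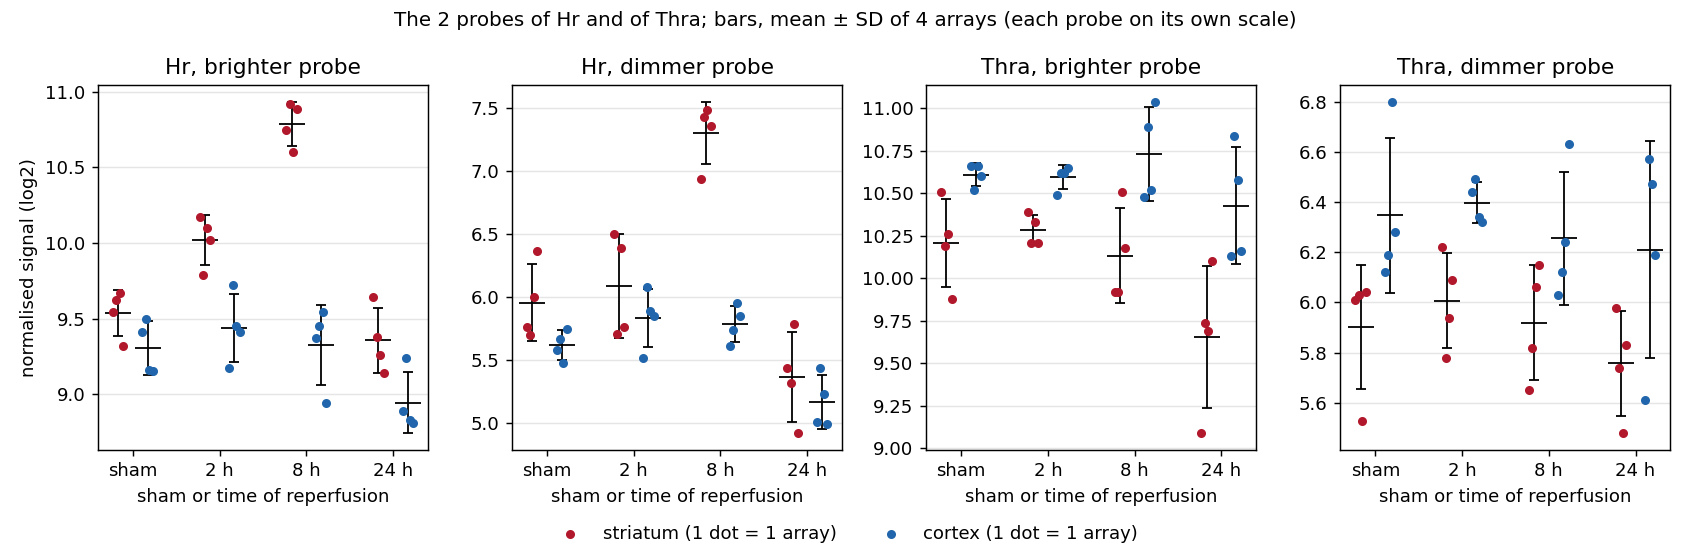
Log2 normalised signal of both probes of Hr and of Thra on each array (dots), with the mean and SD of 4 arrays (bars), by tissue and by sham or time of reperfusion; each probe has its own vertical scale. Both Hr probes are highest at 8 h in the striatum, whereas the lower Thra level at 24 h in the striatum appears on the brighter probe alone.

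The difference of the 2 tissues in their response was computed as striatum minus cortex, each against its own sham, in a fit of all 32 arrays. For Hr it was 0.36 ± 0.19 at 2 h, 1.23 ± 0.19 at 8 h and 0.18 ± 0.19 at 24 h. The 8 h value passed the threshold, with every 8 h array above sham in the striatum and overlapping groups in the cortex. Among 10072 genes only 2 passed at 8 h (0.0199%), Hr and Gart, which was lower (-0.72) and is named here after its value was seen because the count is so small. Hr alone passed without background correction, with an offset of 50, median scaling, no detection filter, the authors' ratios or slide blocks, and in most fits with an array left out. These fits reuse the same arrays. Hr had been chosen with this pattern known, so its place in these counts is a description. On the dimmer Hr probe the response difference at 8 h was 1.18 ± 0.27 and did not pass, so the size held on both probes and the call on 1.

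Among cell type markers, 5 cortical excitatory neuron genes summed to 1380 to 3880 in the 8 h striatum against 664 to 1190 in sham. Of the 3 tested 0 passed the threshold, their median difference was 0.76, and Rtn4r was detected on none of these arrays. The summed level of 8 striatal projection neuron markers was 2740 to 5270 at 8 h and 5370 to 11400 in sham, with 0 of 7 past the threshold and Adora2a detected on no 8 h array. Of 7 monocyte, macrophage and neutrophil markers 2 rose (2250 to 3570 against 786 to 1780), of 6 microglia markers 2 fell (674 to 1050 against 1000 to 1200), and the blood gene Hba-a1 rose (488 to 4080 against 89.8 to 111 for 2 blood genes summed). The 9 astrocyte markers summed to 34000 to 36500 at 8 h and 29700 to 34600 in sham, with 1 higher and 1 lower. Between the sham tissues, Hr differed by 0.23 ± 0.13 (striatum minus cortex), and the cortical excitatory sum was 664 to 1190 in sham striatum and 3200 to 4570 in sham cortex. The part of these cell types in the Hr level was not tested.

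Klf9 differed little from sham, and its 2 largest differences were both in the cortex and of opposite sign. The 8 h cortex arrays read 12.89, 12.67, 12.61 and 12.57 and the sham cortex arrays 12.48, 12.51, 12.37 and 12.43. All 4 arrays at 8 h lay above all 4 sham arrays, by 0.24 ± 0.08 (1.18-fold). At 24 h the cortex read 12.32, 12.30, 12.05 and 12.21, all below sham, by -0.22 ± 0.08. Neither passed the threshold. Both did so with the replicate number as a block. The 8 h value also passed without the fourth 8 h array (0.28) or with the slide as a block (0.28). The 24 h value also passed without the second 24 h array (-0.25), with median scaling or with the authors' ratios. In the cortex at 2 h the range was 12.47 to 12.68, overlapping with sham, a difference of 0.13 ± 0.08.

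In the striatum the Klf9 arrays at 2 h read 12.21, 12.75, 12.50 and 12.50. Those at 8 h read 12.41, 12.53, 12.46 and 12.15, and those at 24 h 12, 11.87, 12.29 and 12.19, against 12.30, 12.42, 12.33 and 12.15 in sham. The groups overlapped at every time. The differences were 0.19 ± 0.12, 0.09 ± 0.12 and -0.21 ± 0.12. The response differences of Klf9 between the tissues were, by time, 0.06, -0.15 and 0.01, each ± 0.14. At 8 h in the striatum, where Hr differed by 1.25, Klf9 thus differed by 0.09.

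Of the receptor genes, only Thra was measurable. In the striatum it read 9.09, 9.74, 9.69 and 10.10 at 24 h against 10.51, 10.19, 10.26 and 9.88 in sham, 1.47-fold lower on average (-0.56 ± 0.18), with overlapping groups. This value passed the threshold, but without the lowest 24 h array it was -0.37, and it missed the threshold when any of 3 of the 4 arrays at 24 h or any of 3 of the 4 sham arrays was left out. It also missed it with the replicate number as a block or without the detection filter (-0.56 in both). The within-slide differences were -0.19, -0.53 and -1.26. On the dimmer Thra probe, which carries the transcript's current accession, the 24 h striatum arrays read 5.98, 5.74, 5.48 and 5.83 against 6.01, 6.03, 5.53 and 6.04 in sham, a difference of -0.15 ± 0.16.

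At 2 h and 8 h in the striatum Thra differed by 0.08 ± 0.18 and -0.08 ± 0.18 from sham, with overlap. In the cortex its level was 10.49 to 10.65 at 2 h, 10.48 to 11.04 at 8 h and 10.13 to 10.84 at 24 h, against 10.52 to 10.66 in sham. The cortex differences were -0.02 ± 0.14, 0.12 ± 0.14 and -0.18 ± 0.14, and all groups overlapped. The spread of Thra between arrays was larger in the cortex at 8 h and 24 h (SD 0.27 and 0.34) than in sham (SD 0.07). Thrb was detected on 1 of 32 arrays, a cortex array at 2 h, with deposited signals of 43.4 to 76.9, so it has no measured level here.

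The deiodinase gene Dio2 was likewise not measurable. It was detected on 1 of 32 arrays, a sham cortex array with a signal of 79, and its deposited signals lay between 43.2 and 79 over all arrays. Neither Dio2 nor Thrb was tested, and whether their expression changed with I/R was not detectable at this signal.

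Crym varied between arrays more than between groups. In the striatum the arrays at 2 h read 10.12, 10.39, 10.18 and 10.05. Those at 8 h read 10.45, 9.50, 10.26 and 10.28, and those at 24 h 9.68, 10.55, 10.31 and 10.45, against 10.72, 10.56, 9.31 and 9.44 in sham. The sham arrays fell into a high and a low pair (SD 0.73), and the groups overlapped at every time, with differences of 0.18 ± 0.28, 0.11 ± 0.28 and 0.24 ± 0.28. In the cortex the ranges were 10.29 to 10.62 at 2 h, 10.59 to 10.86 at 8 h and 10.23 to 10.88 at 24 h, against 10.15 to 10.77 in sham. The cortex differences were 0.00 ± 0.15, 0.22 ± 0.15 and 0.06 ± 0.15.

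**Figure D3:**
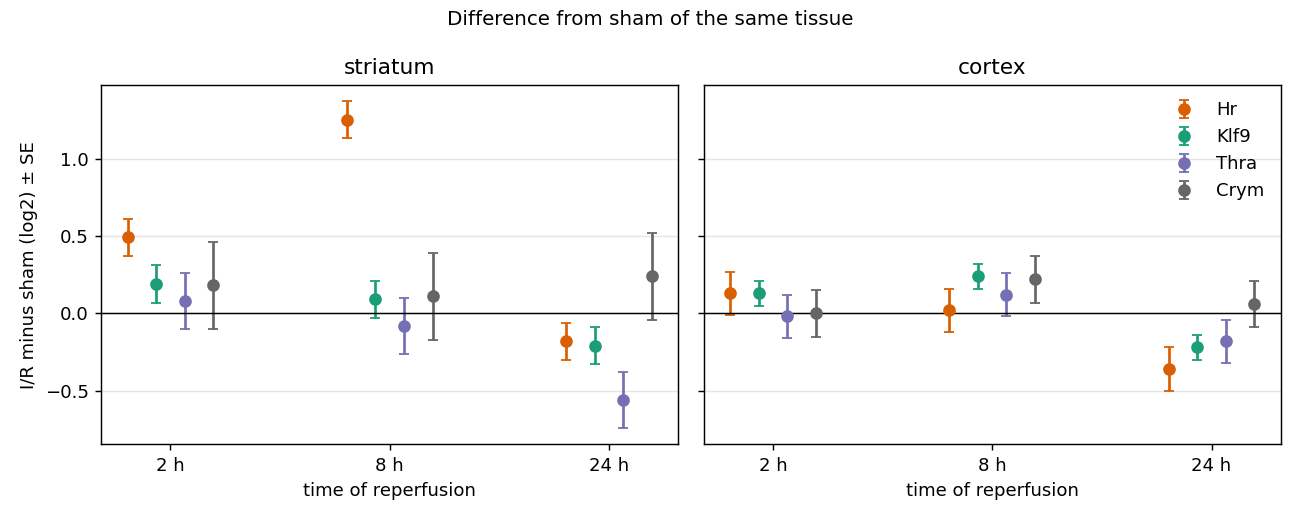
Difference from the sham group of the same tissue in log2 units (dots, I/R minus sham of 4 arrays each) with its standard error (bars), for the 4 genes detected on every array, at 2, 8 and 24 h in the striatum and the cortex. Hr at 8 h in the striatum stands at 1.25, and the other values lie between -0.56 and 0.49.

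Counted over the 4 measured genes, 1 passed the threshold (limma, adjusted p under 0.05 over all genes) in the striatum at 8 h, Hr, where 3.51% of 9855 genes passed, and 1 at 24 h, Thra, where 17.6% passed. In the striatum at 2 h 0 of the 4 passed, with a background of 0.162%. In the cortex 0 of 4 passed at 2, 8 and 24 h, with backgrounds of 1.16%, 7.12% and 14.1% of 9559 genes. The response difference was past the threshold for 1 of 4 at 8 h and for 0 of 4 at 2 h and 24 h, where 0% and 1.78% of 10072 genes passed. Because the genes were chosen with these levels known, the counts are a description. Groups without overlap were found for 1 of 4 genes in the striatum at 2 h and 8 h (Hr) and in the cortex at 8 h and 24 h (Klf9), against 7.86%, 13.7%, 16.4% and 15.8% of all genes. In the other I/R groups it was 0 of 4, against 23.2% in the striatum at 24 h and 13.7% in the cortex at 2 h.

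The median log2 difference of the 4 genes in the striatum was 0.18, 0.10 and -0.20 at 2, 8 and 24 h, and in the cortex 0.06, 0.17 and -0.20. Over all tested genes the median was -0.01, 0.01 and -0.02 in the striatum and -0.01, -0.01 and -0.03 in the cortex. Between sham striatum and sham cortex 0 of 4 passed, where 26.7% of 10072 genes did. The median difference of the 4 genes was -0.28 there, against 0 over all tested genes. Thra was -0.40 ± 0.17 in sham striatum relative to sham cortex, with all 4 striatum arrays lower (31.7% of genes had no overlap there), Klf9 was -0.15 ± 0.10 and Crym -0.50 ± 0.24. Without the first sham striatum array Thra (-0.50) and Crym passed, and without the second Crym did.

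The genes most like Hr in their course were named by the correlation of 8 group means, each tissue centred on its own mean, among 998 genes that varied by at least 0.5 in each tissue. They were Lingo1 (r = 0.97), which encodes a Nogo receptor partner on neurons, Ppp1r16b (0.96), which encodes a regulatory subunit of protein phosphatase 1, the protease inhibitor gene Wfdc2 (0.96), Kl (0.94), the klotho gene of the choroid plexus, and the brain kinase gene Brsk1 (0.89). In the striatum at 8 h their group means stood 0.73, 1.08, 0.79, 0.99 and 0.56 above sham, and at 24 h 0.15, 0.09, 0.23, 0.25 and 0.17 below it. These 8 points share sham groups, arrays and normalisation, and the correlations carry no test. With an offset of 50, without background correction, or with the authors' processed values, none of the 5 reached the range of 0.5 in both tissues, while their r with Hr stayed between 0.89 and 0.98. Kl is also a marker of choroid plexus. The 6 choroid plexus and ependyma markers had a median difference of 0.42 in the striatum at 8 h, with 0 past the threshold. The highest of them, Kl (0.99), Folr1 (0.94) and Clic6 (0.68), were above the sham mean on 4 of 4 arrays. The others, with Ttr (-0.14) among them, lay below the median of 0.42. The sum of the 6 markers was 14200 to 18900 at 8 h and 15500 to 17900 in sham, and it holds the far brighter Ttr. The part of these markers in the Hr level was not tested.

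**Figure D4:**
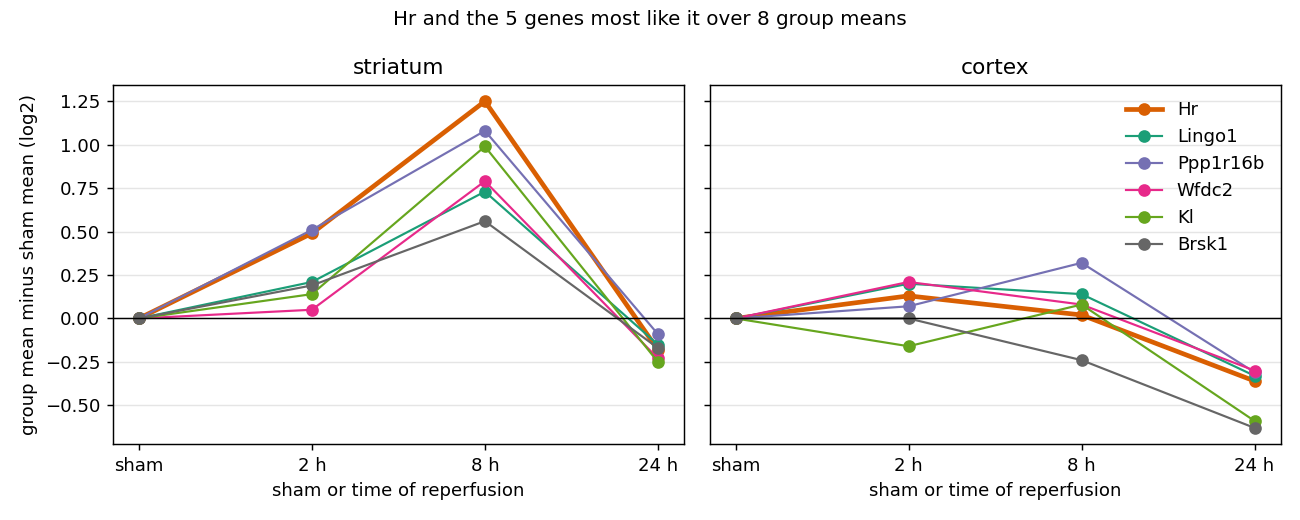
Group means of Hr (thick line) and of the 5 genes most like it, as differences from the sham mean of the same tissue in log2 units, at sham, 2, 8 and 24 h in the striatum and the cortex. All 6 lines peak at 8 h in the striatum and lie below sham at 24 h in both tissues; they were chosen for this likeness.

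The genes nearest to Klf9 by the same measure were Acta2 (r = 0.97), the smooth muscle actin gene, the kinase gene Camk1g (0.96) and the zinc finger gene Ikzf4 (0.95). Nearest to Thra were Depp1 (0.96), Ddit4 (0.95), a stress-induced inhibitor of mTOR signalling, and Sesn1 (0.94), a sestrin gene. Nearest to Crym were Sdcbp2 (0.86), Irak3 (0.81) and Csf1 (0.81), at lower correlations. With an offset of 50, without background correction, or with the authors' ratios, Acta2, Ikzf4 and Irak3 did not reach the range of 0.5 in both tissues. With median scaling the r of Csf1 with Crym was 0.64. Over the other settings, 1 to 3 of the genes named for Klf9 remained among its nearest, 2 to 3 for Thra and 1 to 2 for Crym. Hr, Klf9, Thra and Crym themselves varied by less than 0.5 between the group means of the cortex (0.49, 0.47, 0.31 and 0.22), so none of them met the range asked of the other genes.

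Around these genes, 13 genes of hormone transport and metabolism were listed, of which 8 were tested in the striatum and 9 in the cortex. In the striatum Slco1a4, an organic anion transporter of the blood-brain barrier that carries thyroxine, fell by 1.22 ± 0.19 at 2 h (adjusted p = 0.00954) and by 0.83 ± 0.19 at 8 h (adjusted p = 0.022), with 0 of 4 arrays above the sham mean at either time. Of 5 tested endothelial markers 0 passed the threshold at 2 h and 2 fell at 8 h. The summed level of 6 was 982 to 1340 at 2 h and 764 to 1330 at 8 h against 1440 to 1720 in sham, with Cdh5 undetected on all 4 arrays of each, and their part in the Slco1a4 level was not tested. The call was lost at 2 h without the third sham array and at 8 h without any of 4 arrays, with differences of -1.32 to -1.10 and -1.02 to -0.75 over all arrays left out.

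Slc7a5 and Slc3a2 encode the light and heavy chains of an amino acid transporter that also carries thyroid hormone. In the striatum Slc7a5 rose at 8 h (0.45 ± 0.11, adjusted p = 0.0303) and Slc3a2 at 24 h (0.97 ± 0.25, adjusted p = 0.0134). Each was above the sham mean on 4 of 4 arrays. Slc7a5 missed the threshold without any of 6 of the 8 arrays (0.39 to 0.51), and Slc3a2 without the first 24 h array. In the cortex 0 of the 9 tested genes passed at 2 h and 8 h. At 24 h Dio3, which encodes the deiodinase that inactivates the hormone, fell to below detection on all 4 arrays, against 4 detected sham arrays (adjusted p = 0.0225). Cortex detection was inferred from the probe's signal. In the main fit Dio3 was at least 1.54-fold lower, while over the other settings its log2 difference ranged from -0.94 to -0.13. The Dio3 call was lost without any of 3 of the 8 arrays, and in the deposited cortex table, which holds 1 value per gene. Beside the calls of this list, 0.162%, 3.51% and 17.6% of all genes passed in the striatum at 2, 8 and 24 h, and 14.1% in the cortex at 24 h.

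Of 22 receptor partners and cofactors, 18 were tested in the striatum and 17 in the cortex, and 0 rose in either tissue at 2, 8 or 24 h. In the cortex 2 fell at 8 h, the coactivator gene Ncoa1 (-0.38 ± 0.11, adjusted p = 0.0368) and Tbl1x (-0.46 ± 0.11, adjusted p = 0.0181), a part of the corepressor complex. At 24 h 4 fell, the retinoid X receptor gene Rxrg (-1.01 ± 0.25, adjusted p = 0.0142), Ncoa1 (-0.46 ± 0.11, adjusted p = 0.0104), the acetyltransferase gene Ep300 (-0.38 ± 0.10, adjusted p = 0.0147) and the coactivator gene Ppargc1a (-0.37 ± 0.10, adjusted p = 0.0219). Rxrg differed by -0.30 in the deposited cortex table and kept its call there, but lost it in the fit of the 2 groups alone. The 2 of 17 genes at 8 h stand beside 7.12% of all genes, and the 4 of 17 at 24 h beside 14.1%. In the cortex at 24 h 7 of 7 monocyte, macrophage and neutrophil markers rose (sums of 981 to 16300 against 577 to 661 in sham, S100a9 undetected in sham) and 3 of 5 endothelial markers rose (1900 to 3060 against 1380 to 1700). There 4 of 7 striatal projection neuron markers fell (2710 to 5930 against 6150 to 7950, Adora2a undetected in both), and the part of these cells in the cofactor values was not tested. The calls of Rxrg, Ncoa1 and Ep300 at 24 h held without each array in turn, while that of Ppargc1a was lost without 3 of the 8, that of Tbl1x at 8 h without 2 and that of Ncoa1 at 8 h without 6. In the striatum 0 passed at 2 h and 8 h. The methyltransferase gene Carm1 fell there at 24 h (-0.61 ± 0.18, adjusted p = 0.0285), 1 of 18 beside 17.6% of all genes. That call was lost without 5 of the 8 arrays. The medians of the list in the cortex were -0.16, -0.09 and -0.21 at 2, 8 and 24 h, and in the striatum 0.03, -0.12 and -0.17.

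Of 16 genes described as responsive to thyroid hormone in brain or liver, 13 were tested in the striatum and 14 in the cortex. In the striatum 0 passed at 2 h and at 8 h, the time of the highest Hr level, when their median was 0.06. At 24 h Thrsp (-0.58 ± 0.19, adjusted p = 0.0466), a gene first known from hormone-treated liver, and the myelin gene Mag (-0.42 ± 0.13, adjusted p = 0.0312) fell. Mag is also an oligodendrocyte marker, and 2 of 6 such markers fell, with sums of 35900 to 39100 at 24 h and 38900 to 44200 in sham. In the cortex the neurotrophin gene Bdnf rose at 2 h (1.04 ± 0.25, adjusted p = 0.0454), and at 24 h the kinase gene Camk4 (-1.0 ± 0.26, adjusted p = 0.019) and the matrix gene Reln (-0.67 ± 0.12, adjusted p = 0.00295) fell. Camk4 differed by -0.15 in the deposited cortex table. Of the genes named here, only Reln held its call without each array in turn. The calls of Mag and Thrsp were each lost with median scaling, no detection filter, the 2 groups alone or the authors' ratios. That of Mag was also lost with the slide as a block, and that of Thrsp with the replicate block. Bdnf lost its call without the detection filter, without the variance trend or with the slide as a block. The 2 of 13 genes in the striatum and 2 of 14 in the cortex at 24 h stand beside 17.6% and 14.1% of all genes. The 1 of 14 in the cortex at 2 h stands beside 1.16%. The part of the cell type markers given above for the cortex at 24 h in these values was not tested.

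Glucocorticoid-responsive genes were listed because Klf9 is also a target of that hormone, and 14 of 15 were tested. In the striatum 6 of 14 rose at 8 h, among them the lipid droplet gene Plin4 (2.24 ± 0.34, adjusted p = 0.00302), the cell cycle inhibitor gene Cdkn1a (1.81 ± 0.39, adjusted p = 0.0192), the metallothionein gene Mt2 (1.57 ± 0.36, adjusted p = 0.0239) and the cochaperone gene Fkbp5 (1.35 ± 0.19, adjusted p = 0.00214). In the cortex 5 of 14 rose at 8 h, and Mt2 stood 1.5 ± 0.30 above sham there (adjusted p = 0.00822). At 24 h 5 fell and 1 rose in the striatum, and 3 fell in the cortex. Over all genes 3.51% passed in the striatum and 7.12% in the cortex at 8 h, and 17.6% and 14.1% at 24 h. The list was chosen with earlier results of these data known, so the counts are a description. Ddit4 fell at 24 h in the striatum (-1.03 ± 0.13, adjusted p = 0.00035) and in the cortex (-0.52 ± 0.09, adjusted p = 0.00148), and Sgk1, a kinase gene, fell by 0.78 ± 0.16 in the striatum (adjusted p = 0.00547). The calls of Plin4 and Fkbp5 at 8 h and of Ddit4 at 24 h held without each array in turn, while those of Cdkn1a and Mt2 in the striatum were lost without 3 and 5 of the 8 arrays. Klf9 passed the threshold at none of these times.

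Of 13 clock genes, which were listed because their levels follow the time of day, 10 were tested. In the striatum 0 passed at 2 h and 8 h, and Bhlhe40 (0.78 ± 0.16, adjusted p = 0.00586) and Nr1d2 (0.52 ± 0.14, adjusted p = 0.0159) rose at 24 h, 2 of 10 beside 17.6% of all genes. In the cortex Per3 rose at 8 h (0.72 ± 0.16, adjusted p = 0.0139), 1 of 10 beside 7.12% of all genes, and 0 passed at 2 h and 24 h. Nr1d2 lost its call without 2 sham arrays and Per3 without 1, and Per3 differed by 0.17 in the deposited cortex table. The time of day at which sham tissue was taken is not given in the labels, so it cannot be told apart from I/R.

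**Figure D5:**
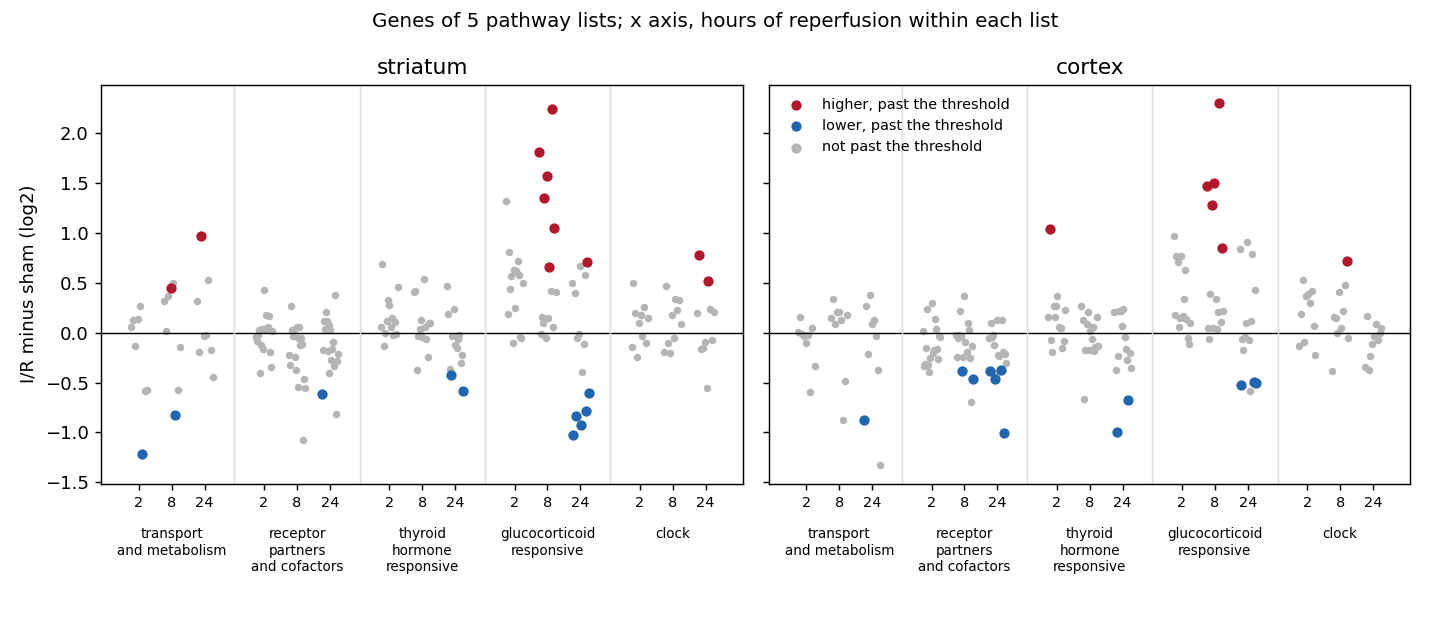
Log2 difference from sham of every tested gene of the 5 lists (dots), in the striatum and the cortex, with 2, 8 and 24 h side by side within each list; red and blue mark genes higher and lower past the threshold and grey the rest. The highest dots are glucocorticoid-responsive genes at 8 h, with Plin4 at 2.24 in the striatum and 2.30 in the cortex, and the receptor partners and cofactors hold no red dot.

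Between the sham tissues, 21 pathway list genes passed the threshold, beside 26.7% of all genes tested. Of 9 tested transport and metabolism genes 1 was higher and 2 lower in the striatum, and of 18 partners and cofactors 1 and 4. Of 14 thyroid hormone responsive genes 5 were higher and 4 lower. Of 14 glucocorticoid-responsive genes 1 was higher and 0 lower, and of 10 clock genes 1 and 2. Among the pathway list genes that passed, the largest differences were in genes responsive to thyroid hormone. Nrgn, which encodes a calmodulin-binding protein of neurons, was lower in the striatum (-1.90 ± 0.37, adjusted p = 0.000321). The retinaldehyde dehydrogenase gene Aldh1a1 was higher there (1.58 ± 0.22, adjusted p = 4.34e-06). Of hormone transporters, Slc7a8 was lower in the striatum (-0.84 ± 0.15, adjusted p = 0.000147) and Slco1a4 higher (0.77 ± 0.24, adjusted p = 0.0167), and the coactivator gene Kat2b was higher (0.86 ± 0.16, adjusted p = 0.000204) while the corepressor gene Ncor1 was lower (-0.79 ± 0.17, adjusted p = 0.000712). Slco1a4 lost its call without 3 of the 8 arrays (0.68 to 0.96), and the others named here kept theirs without each array in turn. In the difference of the 2 responses, 0 genes of the 5 lists passed at 2, 8 or 24 h.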

How the data were processed

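The intensity values are mean bead signals per probe that the authors exported with BeadStudio 3.3.7, per the file headers, without normalisation or background subtraction. The detection fractions are deposited as 1 minus the detection p, per probe for the striatum but per gene for the cortex. The detection p of each cortex probe was therefore interpolated from its signal, along the genes with a single probe on the same array. Bead counts per value are deposited too, with medians of 31 to 40 per array. The submitters' value table holds ratios to sham of the same tissue, deposited by the authors, and was an alternative. The whole table of 32 arrays was used; 837 probes without values and 8 columns of no sample were left out. Replicate numbers differ between the deposited tables (0 of 32 agree, all 32 groups do), and those of the whole table are used. Signals were background-corrected (normal-exponential, background from detection p, offset 16), quantile-normalised over all 32 arrays and logged (log2) with limma 3.58.1 in R 4.3.3.

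A gene is its probe of highest mean, kept where detected (p under 0.05) on all 4 arrays of a group. Groups were fitted per tissue, or over all 32 arrays between tissues, with lmFit and, allowing the variance to follow the level, eBayes (2-sided); p-values were adjusted by Benjamini-Hochberg over all genes and called under 0.05. Position on the slide goes with the group and cannot be told apart from it. 

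The 6 genes and the 5 pathway and 11 marker lists were chosen with earlier results of these data known. Up to 4 genes per list and comparison were named, by size of difference among those past the threshold. The scripts were tested on simulated data. Tried instead were median scaling, quantile normalisation within tissues, an offset of 50, uncorrected signals, no detection filter, detection at p under 0.01 on every array, no variance trend, the tissue tables, the submitters' ratios, the 2 groups alone, slide and replicate blocks, the other probe and each array left out. For 1 gene of the marker lists, its own values are not reported here.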

Additional observations from a re-analysis of the deposited data

Results flagged for a closer look

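Hr was flagged for a difference between the tissues. Its response at 8 h was 1.23 ± 0.19 (log2, SE) larger in the striatum than in the cortex, tested as an interaction in the fit of all 32 arrays, and the gene had been chosen with this pattern known. On the other Hr probe the value was 1.18 ± 0.27.

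Dio2 was flagged for 1 array that stood apart from its group. A sham cortex array read 5.44, the others 4.62 to 4.71, and it was the only array on which Dio2 was detected. Chance flags about 1 in 20 groups of this size where the groups are not selected. A group was checked only if the gene was detected on at least 1 of its arrays. Here that was the flagged array itself, so the rate does not hold for it.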

How the results depend on the processing

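Hr at 8 h in the striatum passed the threshold in every setting and without each array in turn (1.18 to 1.35, and 1.18 to 1.32), and its response difference at 8 h did so (1.14 to 1.28, and 1.10 to 1.31) except on the other Hr probe (1.18). No value that had passed changed sign. Of the 4 genes, the number past the threshold was 1 in the cortex at 8 h with the slide or the replicate number as a block (Klf9) and 0 to 1 with an array left out. In the cortex at 24 h it was 1 with median scaling or the authors' ratios (Klf9) and 1 with the other Hr probe (Hr). It was 2 there with the replicate block (Hr and Klf9) and 0 to 2 with an array left out. In the striatum at 8 h it was 2 without the detection filter, where Thrb, detected on none of these arrays, was added. In the striatum at 24 h it was 0 with median scaling, the 2 groups alone, the authors' ratios, the replicate block or the other Thra probe, and 0 to 1 with an array left out. Without the detection filter it was 1, but Thra was lost and the undetected Thrb passed. Between the sham tissues it was 1 with quantile normalisation within tissues (Hr, 0.37) and 0 to 2 with an array left out, and for the response difference at 8 h it was 0 with the other Hr probe. Of the 5 pathway lists, 1 gene passed in the cortex at 2 h, against 0 without the detection filter or the variance trend, 8 with the 2 groups alone, 3 with slide blocks, 2 with replicate blocks and 0 to 2 with an array left out. At 8 h in the cortex 8 passed, against 13 with the 2 groups alone and 5 to 10 with an array left out. In the striatum 1 passed at 2 h (0 with stricter detection, 5 with the 2 groups alone, 0 to 3 with an array left out), 8 at 8 h (4 with the authors' ratios, 3 to 9 with an array left out) and 12 at 24 h (7 with the authors' ratios). For the response difference at 24 h 0 passed, 1 with the replicate block and 0 to 2 with an array left out. The causes were not tested. Over all genes the counts ranged over the settings from 7 to 88 (2 h), 67 to 619 (8 h) and 563 to 1945 (24 h) in the striatum and from 58 to 520, 358 to 985 and 669 to 1882 in the cortex. With an array left out they ranged from 0 to 28, 58 to 315 and 912 to 1834 in the striatum and from 20 to 120, 256 to 877 and 685 to 2432 in the cortex. For the response difference at 24 h they ranged from 1 to 263, and from 38 to 406 with an array left out. Same-numbered arrays of I/R and sham correlated at -0.27 to 0.25 within a tissue, and same-numbered arrays of the 2 tissues at -0.32 to 0.57. By neither check does every pair deviate together. Between the tissues, replicates 1 and 2 at 24 h stood at 0.57 and 0.48. Pairs under the other deposited numbering were not checked, so whether the 2 tissues came from the same mice is not known. The main fits treat all arrays as independent. The authors' ratios, set to each tissue's own sham, were not run for sham against sham, and the tissue tables and the 2 groups alone were not run between tissues. The 4 arrays of a group limit the precision, and signals near background hold no level for Dio2 and Thrb.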
